A study of Mus musculus with 2 samples.

Results

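The MHC class I antigen presentation pathway was examined in the 2 RNA sequencing libraries of the series, with 1 library per condition. The labels describe cells sorted as aerobic from LLC (Lewis lung carcinoma) tumors grown under the skin of wild type C57BL/6 mice, after injection of vehicle or of clodronate, which is commonly packed into liposomes to deplete macrophages. The label of the growth protocol names EML cells, a blood progenitor line, and so conflicts with the other labels. The labels do not state how many mice were pooled, the age of the mice, the dose or the schedule. The genes were chosen by name, as H2-K1, H2-D1, B2m, Tap1, Tap2, Tapbp, Psmb8, Psmb9, Psmb10 and Nlrc5. Of these 10 genes, 9 had a row of their own among the 22886 genes of the files. H2-D1 had none, because its RefSeq accession shared a row named LOC547349 with 2 other accessions, and that row is given separately as the shared H2-D1 row. No count, median or range over the 9 genes includes it.

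MHC class I molecules display short peptides from proteins made inside the cell to CD8 T cells and are recognized by NK cells as well. A heavy chain (encoded by H2-K1, H2-D1 and the related H2-Q, H2-T and H2-M genes in mice) pairs with the invariant light chain beta-2 microglobulin, the product of B2m. The proteasome cuts the peptides, and interferons favor a form of it called the immunoproteasome, in which the products of Psmb8, Psmb9 and Psmb10 replace the constitutive catalytic subunits. The peptides enter the endoplasmic reticulum through the transporter made of TAP1 and TAP2, and tapasin, encoded by Tapbp, holds the empty heavy chain at the transporter until a peptide binds. NLRC5 is a transactivator of MHC class I genes, as CIITA is of MHC class II genes. Macrophages express class I molecules as nearly all nucleated cells do.

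The regulatory sequences of the pathway are shown first because promoters of several class I genes are known to respond to interferons and NF-kB. RefSeq promoter sequences of GRCm38.p6 were found for 8 of the 10 genes, without Tap2 and Nlrc5, and only bases before the annotated start were searched. H2-K1 had 2 windows, and the one with the lower coordinate was used, so that its distances hold for that start. The motifs searched on both strands were AANNGAAA, the core bound by interferon regulatory factors (IRF), GGGNNTTCC, a form of the NF-kB site, TTCNNNGAA, the STAT element GAS, TGACG, the core of the cyclic AMP response element (CRE), and CCAAT. Capitals mark the matches to the IRF core, the NF-kB site and the CRE core, which do not overlap each other in these windows. The first pair of sequences are the promoters of the classical heavy chains, H2-K1 at chr17:34000334-34000583 on the minus strand and H2-D1 at chr17:35262844-35263093 on the plus strand, the third is that of B2m at chr2:122147437-122147686 on the plus strand, and the last is the stretch between the starts of Psmb9 and Tap1, read toward Tap1, at chr17:34187331-34187555.

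H2-K1: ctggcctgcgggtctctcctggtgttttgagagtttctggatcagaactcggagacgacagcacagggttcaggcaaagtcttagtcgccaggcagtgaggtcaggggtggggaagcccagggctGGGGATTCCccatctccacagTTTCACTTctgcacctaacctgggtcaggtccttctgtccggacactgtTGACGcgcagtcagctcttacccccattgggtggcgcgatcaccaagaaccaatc

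H2-D1: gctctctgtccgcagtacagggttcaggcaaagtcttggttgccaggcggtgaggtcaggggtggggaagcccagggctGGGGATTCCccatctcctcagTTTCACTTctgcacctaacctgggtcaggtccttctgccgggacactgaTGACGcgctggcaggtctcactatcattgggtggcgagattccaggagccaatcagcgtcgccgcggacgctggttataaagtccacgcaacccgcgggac

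B2m: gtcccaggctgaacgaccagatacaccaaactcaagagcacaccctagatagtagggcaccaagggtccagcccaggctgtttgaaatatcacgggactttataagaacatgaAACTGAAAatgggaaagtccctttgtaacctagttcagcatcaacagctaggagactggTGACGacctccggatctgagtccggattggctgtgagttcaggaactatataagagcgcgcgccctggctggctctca

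Tap1 and Psmb9: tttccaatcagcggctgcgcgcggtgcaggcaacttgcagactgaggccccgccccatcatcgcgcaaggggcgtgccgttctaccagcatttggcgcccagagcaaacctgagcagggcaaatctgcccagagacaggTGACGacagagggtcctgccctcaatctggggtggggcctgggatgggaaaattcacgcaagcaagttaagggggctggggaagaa

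Both heavy chain promoters held the NF-kB site followed by the IRF core and the CRE core in the same order. In H2-K1 these lay 125 to 117, 104 to 97 and 55 to 51 bases before the start, and in H2-D1 they lay 171 to 163, 150 to 143 and 101 to 97 bases before it. Aligned on the NF-kB site without gaps, 169 of 204 bases (82.8%) were identical. B2m held the IRF core 137 to 130 bases and the CRE core 78 to 74 bases before its start. The stretch between Psmb9 and Tap1 is 225 bases long, serves genes that point away from each other, and held the CRE core but neither the IRF core nor the NF-kB site as spelled here. Of the 8 promoters, 3 held the IRF core, 2 the NF-kB site, 5 the CRE core, 6 CCAAT and 1, that of Psmb8, the GAS element. The stretch between Psmb9 and Tap1 stands for Tap1 in these counts and also lies within the window of Psmb9, so that 1 CRE core and 1 CCAAT match each count for both genes. The windows of Tap1, Tapbp, Psmb9 and Psmb10 held none of the IRF core, the NF-kB site and the GAS element as spelled here. Among 32851 promoter windows of 250 bases, the shares with a match were 21.3% for the IRF core, 4.98% for the NF-kB site, 17.8% for the CRE core, 33.8% for CCAAT and 7.02% for GAS. A match describes the letters in the window, and binding was not measured.

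The files give RPKM, read numbers scaled by transcript length and library size, for 23170 loci. Values given as a pair are in the order vehicle, then clodronate. With 1 library per condition there is no replicate spread and no test, and a difference between the conditions cannot be told apart from one between the animals, the sorts or the preparations. The files hold no read counts and the absolute depth is unknown. Among 354 loci under 0.3 RPKM in both libraries, 57 shared 1 ratio of vehicle to clodronate RPKM, 0.816, which corresponds to 1.23 times as many reads in the vehicle library if these loci hold equal read numbers. All 12 macrophage markers had at least 10 RPKM in both libraries, and their summed level was 26533 RPKM with vehicle and 25325 RPKM with clodronate. Single markers differed, with 7 higher and 5 lower in the clodronate library. The lowest ratio was that of C1qc, with 3984 and 2043 RPKM, and the highest that of Mrc1, with 174 and 289 RPKM. The 5 epithelial markers summed to 12.8 and 11.0 RPKM, with Epcam and Krt19 listed at 0 in both, and the 5 blood progenitor markers summed to 5.41 and 2.62 RPKM. The cells labelled as tumor cells thus had far more macrophage than epithelial transcript by these lists, and LLC cells had no list of their own. In such bulk libraries, fewer cells of a type and less RNA per cell cannot be told apart.

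The light chain and the classical heavy chains were among the most abundant transcripts of both libraries. B2m had 10339 RPKM in the vehicle library, where it ranked 2 among the 10982 genes kept, those whose mean RPKM was 1 or more, and 8188 RPKM in the clodronate library, where it ranked 4. The shared H2-D1 row had 1257 RPKM with vehicle and 1219 RPKM with clodronate. H2-K1 had 762 RPKM with vehicle and 588 RPKM with clodronate. Both genes and the shared row were thus lower in the clodronate library as deposited. The vehicle level of H2-K1 was 1.30 times and that of B2m 1.26 times the clodronate level, and that of the shared row 1.03 times. The lower value of B2m turned into a higher one, with a log2 ratio of 0.18, when the ratios were corrected for GC content and transcript length, whereas that of H2-K1 was then -0.44 and that of the shared row -0.20. The RPKM of B2m was 13.6 times that of H2-K1 in the vehicle and 13.9 times in the clodronate library. Against the sum of the 20 heavy chain rows given below, it was 4.61 times in the vehicle and 3.84 times in the clodronate library.

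**Figure D1:**
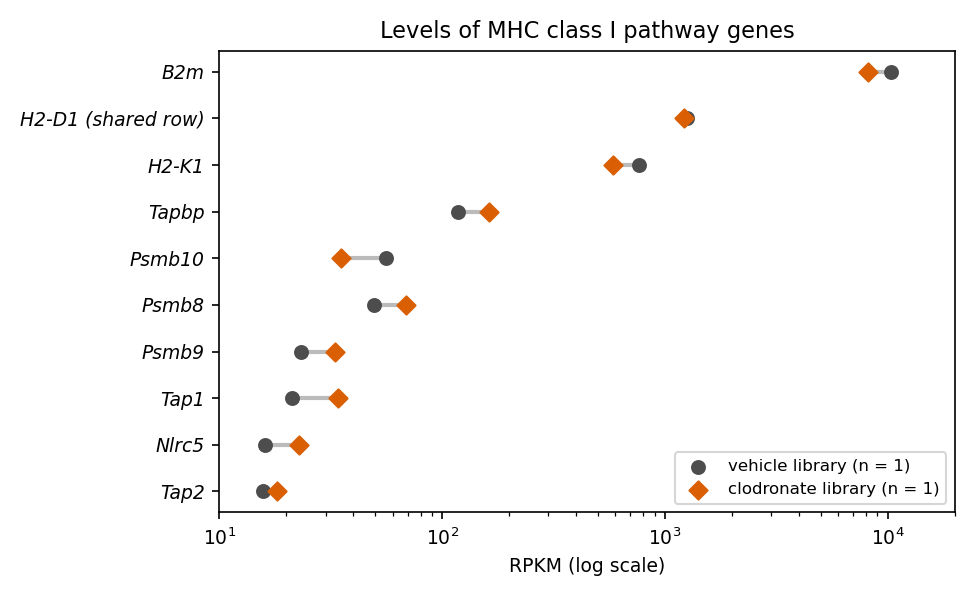
Level of each class I pathway gene in the vehicle library (grey circles) and the clodronate library (orange diamonds), 1 library each, in RPKM on a log axis, ordered by the vehicle level. B2m and the heavy chains stood at 588 RPKM or more in both libraries, Tapbp at 118 RPKM or more and the other genes between 15.6 and 68.6 RPKM, and the symbols of each gene lie close together relative to the spacing between the chains and the rest.

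The genes of peptide transport and loading had higher values in the clodronate library as deposited, with Tap2 as the exception once corrected for GC content. Tap1, a subunit of the peptide transporter, had 21.3 RPKM with vehicle and 34.0 RPKM with clodronate, 1.60-fold higher. Tap2, its partner subunit, had 15.6 and 18.2 RPKM, 1.16-fold higher, and its log2 ratio was -0.046, slightly lower, once GC content and length were corrected for. The RPKM of Tap1 was 1.36 times that of Tap2 in the vehicle library and 1.87 times in the clodronate library. Tapbp, which encodes the tapasin bridge between transporter and heavy chain, had 118 and 162 RPKM, 1.37-fold higher. Nlrc5, the transactivator, had 16.0 RPKM with vehicle and 22.8 RPKM with clodronate, 1.43-fold higher.

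The immunoproteasome subunits did not share a direction. Psmb8, the inducible chymotrypsin-like subunit, had 49.6 RPKM with vehicle and 68.6 RPKM with clodronate, 1.38-fold higher. Psmb9, an inducible subunit that shares the stretch shown above with Tap1, had 23.4 and 33.2 RPKM, 1.42-fold higher. Psmb10, the inducible trypsin-like subunit, had 55.9 and 35.2 RPKM, so that its vehicle level was 1.59 times the clodronate level. Psmb10 exceeded Psmb8 in the vehicle library and Psmb8 exceeded Psmb10 in the clodronate library. Psmb10 lies on chromosome 8, as does Nlrc5, and B2m lies on chromosome 2. The other 6 genes with a row of their own lie on chromosome 17, in the major histocompatibility complex. Psmb9, Tap1, Psmb8 and Tap2 follow each other there within 34223 bases, at 34319044 to 34353266 in the build mm9 of the files, and the gaps between neighbors are 225, 969 and 3024 bases. These 4 neighbors were all higher in the clodronate library as deposited, with log2 ratios of 0.49, 0.65, 0.46 and 0.21, and all but Tap2 after the correction.

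The differences of the 9 genes were of moderate size against those of all genes. Log2 ratios were formed after 1 RPKM had been added to both values, with clodronate over vehicle, so that changes of low genes are understated. With a threshold of 2-fold, 0 of the 9 genes were higher in the clodronate library, where 6.95% of all 10982 genes kept were, and 0 were lower, where 6.77% of all genes were. The shares were smaller, 4.35% higher and 4.47% lower, among the 7957 genes whose mean was 5 RPKM or more, which include all 9 genes. A log2 ratio above 0 was found for 6 of the 9 genes (Tap1, Tap2, Tapbp, Psmb8, Psmb9 and Nlrc5, with B2m in place of Tap2 after the correction), against 51.6% of all genes. The median log2 ratio of the 9 genes was 0.45, or 0.27 after the correction, against 0.019 for all genes kept as deposited. The highest was that of Tap1, 0.65, at percentile 90.3 of the 5913 genes whose mean was 10 RPKM or more, and the lowest was that of Psmb10, -0.65, at percentile 9.67. Of these 5913 genes, 80.6% had log2 ratios between those of Psmb10 and Tap1. H2-K1 stood at -0.37, percentile 20.6, and B2m at -0.34, percentile 22.8.

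**Figure D2:**
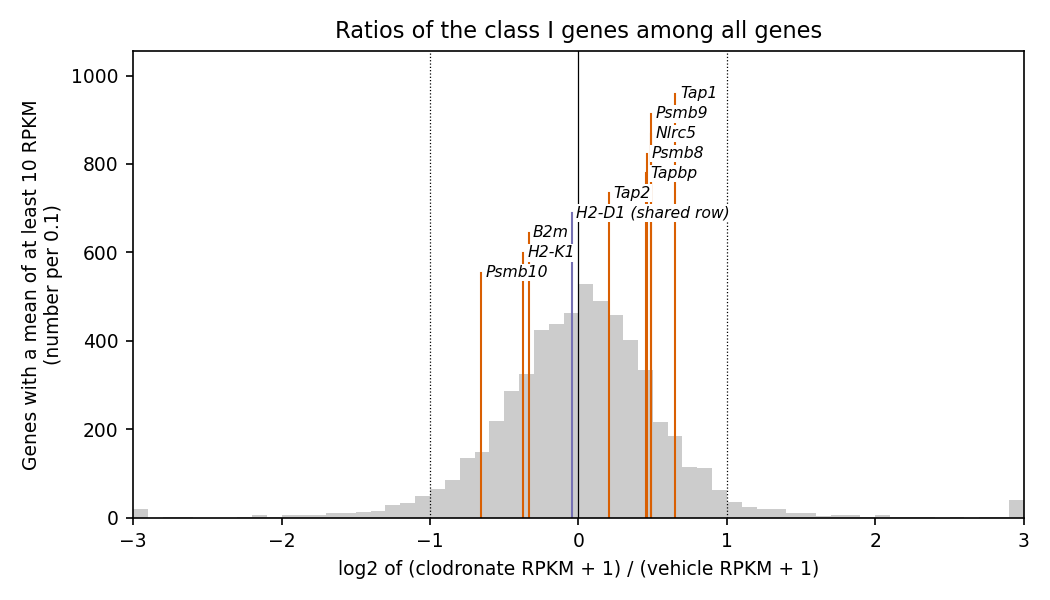
Log2 ratio of clodronate to vehicle RPKM, each plus 1, for the class I genes (orange lines) and the shared H2-D1 row (purple line) over the distribution of all 5913 genes whose mean was 10 RPKM or more (grey bars, number of genes per 0.1, with ratios beyond 3 placed in the end bars). Dotted lines mark 2-fold, and the class I genes lie between them, from Psmb10 at -0.65 to Tap1 at 0.65.

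Each inducible subunit takes the place of 1 constitutive subunit, and their ratio within a library does not depend on how the libraries were scaled to each other. Psmb8 had 1.25 times the RPKM of its counterpart Psmb5 in the vehicle library and 0.238 times in the clodronate library. This ratio turned on Psmb5, which had 39.8 RPKM with vehicle and 289 RPKM with clodronate, 7.26-fold higher, the highest log2 ratio (2.83) of any gene of the pathway lists. Psmb9 had 0.207 times the RPKM of Psmb6 in the vehicle and 0.372 times in the clodronate library, with Psmb6 at 113 and 89.2 RPKM. Psmb10 had 0.866 and 0.514 times the RPKM of Psmb7, which itself had 64.5 and 68.4 RPKM. The ratio of inducible to constitutive transcript was thus higher in the clodronate library at 1 catalytic position and lower at the others. The summed RPKM of Psmb9 and Psmb10 was 0.447 times that of Psmb6 and Psmb7 in the vehicle and 0.434 times in the clodronate library. With the pair of Psmb8 and Psmb5 included, the summed ratio was 0.593 and 0.307.

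**Figure D3:**
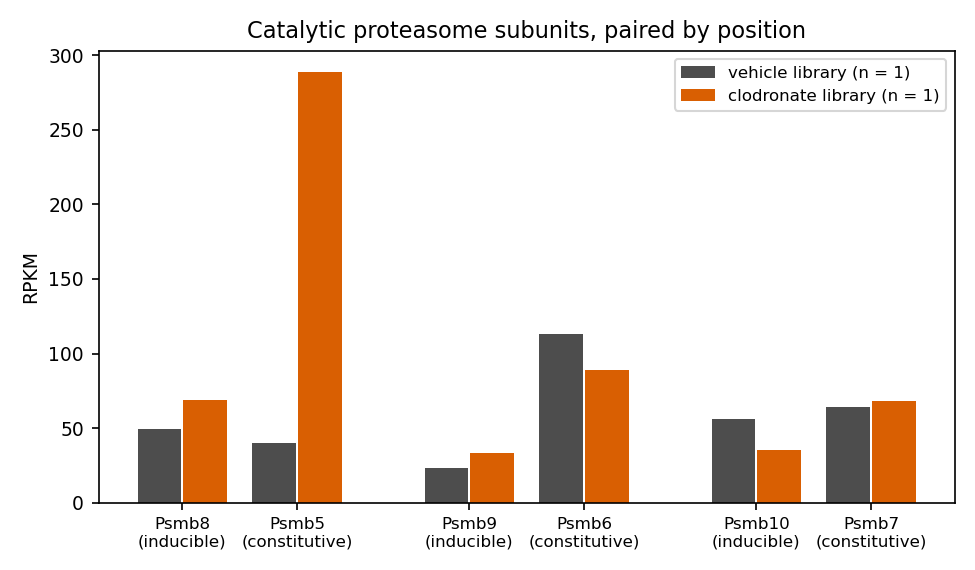
RPKM of the inducible catalytic proteasome subunits and of the constitutive subunits they replace, in the vehicle library (grey bars) and the clodronate library (orange bars), 1 library each, with no error bars for want of replicates. Psmb5 stands out at 289 RPKM in the clodronate library against 39.8 RPKM in the vehicle library, whereas Psmb8, Psmb9 and Psmb10 are at 68.6 RPKM or less in both.

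Psme1 and Psme2 encode the PA28 activator, a cap that opens the proteasome and is also induced by interferon. They were listed together with the activator genes Psme3 and Psme4, and with Pomp, which encodes an assembly factor of the proteasome. Of these 5 activator and assembly genes, 0 reached 2-fold in either direction, and their median log2 ratio was -0.22. Of all genes kept, 6.95% were higher and 6.77% lower by 2-fold or more. Psme1 had 182 and 186 RPKM, while its partner Psme2 had 121 RPKM with vehicle and 75.3 RPKM with clodronate. Pomp, the assembly factor, had 131 and 101 RPKM.

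Further heavy chain genes, which present to other receptors or at lower levels, had a median log2 ratio of 0.41 over the 13 of 24 listed genes that passed the mean of at least 1 RPKM. Of these, 3 were at least 2-fold higher (H2-Q4, H2-Q8 and Cd1d1) and 1 was at least 2-fold lower (H2-M2), against 6.95% and 6.77% of all genes kept. Cd1d1, which presents lipids, had 0.796 and 2.66 RPKM, and H2-M2 had 2.79 and 0.403 RPKM, so that each passed the mean of 1 RPKM only through its higher library. H2-Q4 had 34.0 RPKM with vehicle and 73.7 RPKM with clodronate, and H2-Q8 had 2.96 and 15.5 RPKM. H2-T23, which encodes Qa-1, a ligand of the NK cell receptor CD94-NKG2A, had 27.5 and 44.8 RPKM. H2-Q7, a gene of the Qa-2 antigen, had 42.5 and 56.7 RPKM, and H2-M3, which presents formylated peptides, had 9.80 and 9.60 RPKM. Summed over the 20 heavy chain rows, the H2 genes had 2243 RPKM with vehicle and 2134 RPKM with clodronate. H2-K1 made up 34.0% and 27.5% of this sum, the shared H2-D1 row 56.0% and 57.1%, and the other rows 9.98% and 15.4%. The heavy chain genes are close copies of each other, so that reads may have been split among them, and these rows are uncertain. How the reads that match several copies were assigned is not given in the sources used here.

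The list of loading chaperones and trimming enzymes also held the translocon genes Sec61a1 and Sec61b, and Lnpep, which encodes an aminopeptidase of endosomes. Its median log2 ratio was 0.14 over 11 genes. Of these, 0 were higher and 0 lower by 2-fold or more, against 6.95% and 6.77% of all genes kept. Calr, which encodes calreticulin of the peptide loading complex, had 372 RPKM with vehicle and 485 RPKM with clodronate. Pdia3, the disulfide isomerase bound to tapasin, had 86.5 and 127 RPKM. Canx, which encodes calnexin, had 117 and 115 RPKM. Erap1, the aminopeptidase that trims peptides to size, had 16.4 and 20.6 RPKM, and Tapbpl, a tapasin-related peptide editor, had 10.4 and 9.08 RPKM. Of the cytosolic peptidases, which degrade or trim peptides before transport, 5 were found. At least 2-fold higher was 1, Thop1, with 2.86 and 7.09 RPKM, and 0 were at least 2-fold lower, against 6.95% and 6.77% of all genes kept. The median log2 ratio of these peptidases was 0.59.

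**Figure D4:**
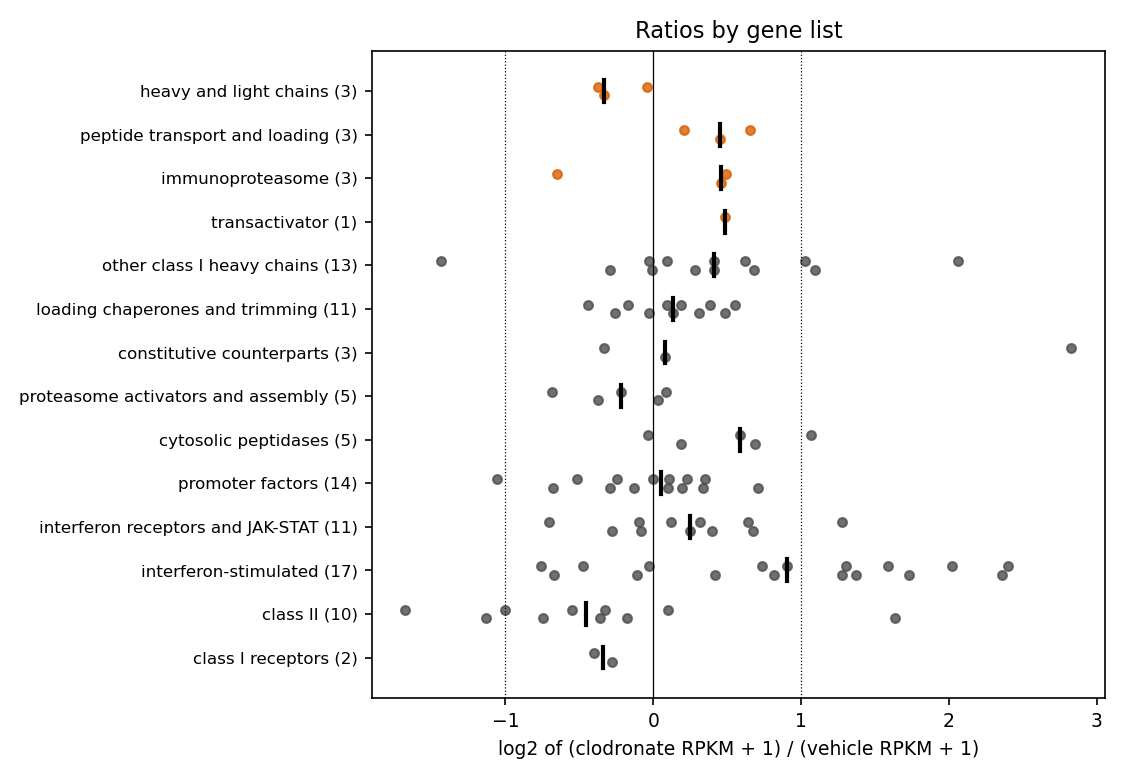
Log2 ratio of clodronate to vehicle RPKM, each plus 1, of every gene whose mean was 1 RPKM or more in the class I groups (orange, with the shared H2-D1 row among the heavy and light chains) and in the related gene lists (grey), with the number of genes in brackets and a bar at each median. The interferon-stimulated list has a median of 0.90 and the class II list one of -0.45, and the peptide loading genes lie between 0.21 and 0.65.

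Transcription factors that bind class I promoters had a median log2 ratio of 0.049 over 14 genes. Of these, 0 were higher and 1 was lower by 2-fold or more, against 6.95% and 6.77% of all genes kept. The lower gene was Rfxap, a subunit of the RFX complex that recruits NLRC5 and CIITA, with 7.96 RPKM with vehicle and 3.31 RPKM with clodronate. The other subunits, Rfx5 and Rfxank, had 4.81 and 3.75 RPKM and 3.64 and 4.85 RPKM. Irf1, the interferon-induced activator of class I genes, had 55.9 and 64.1 RPKM. Rela, the NF-kB subunit p65, had 67.1 and 72.2 RPKM.

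Among the 11 receptors and signaling genes of the interferons, 1 was at least 2-fold higher and 0 were at least 2-fold lower, against 6.95% and 6.77% of all genes kept. The higher gene was Socs1, a feedback inhibitor with 0.714 and 3.15 RPKM, which passed the mean of 1 RPKM only through the clodronate library. Stat2, which carries the signal of type I interferons, had 20.4 RPKM with vehicle and 32.4 RPKM with clodronate. Jak2, of the same list, had 19.9 and 11.8 RPKM. Of the 11 genes, 7 had a log2 ratio above 0 and 4 had one below 0. Of the 17 interferon-stimulated genes, 8 were higher by 2-fold or more and 0 lower by as much, against 6.95% and 6.77% of all genes kept. The median log2 ratio of this list was 0.90. Ifit1, an antiviral effector, had 2.47 and 13.1 RPKM. Genes of this list known to respond to interferon-gamma had values in both directions. Cxcl9, a T cell chemokine, had 60.4 and 35.3 RPKM, and Gbp2, a guanylate-binding GTPase, had 81.3 and 50.7 RPKM. Cxcl10, a related chemokine, had 46.8 and 78.6 RPKM, and the GTPases Irgm1 and Iigp1 had 12.4 and 17.0 RPKM and 7.16 and 6.55 RPKM. This list was known to be higher from earlier results of these data and is given only beside the class I genes. The interferon-gamma gene itself, Ifng, had 2.75 RPKM in the vehicle library and was listed at 0 in the clodronate library. The 12 T and NK cell markers, which include Ifng, summed to 14.5 and 9.77 RPKM, with Cd3e, Cd3g and Ncr1 listed at 0 in both libraries. Cd4 made up most of both sums, with 10.3 and 7.72 RPKM. Nkg7 and Gzmb, of cytotoxic cells, were listed at 0 with vehicle and had 1.02 and 0.586 RPKM with clodronate. Other markers of this list differed in either direction at such low levels. Cd3d had 0.837 and 0.079 RPKM, Cd8b1 had 0.598 and 0 RPKM, and Il2rb had 0 and 0.285 RPKM. The 7 dendritic cell markers summed to 6.77 and 13.0 RPKM, and the higher sum came from Cd209a, with 1.25 and 8.68 RPKM. Of the others, Ccr7 had 3.36 and 2.31 RPKM and Clec9a 0.979 and 0.421 RPKM. Flt3 had 0 and 0.232 RPKM and Xcr1 0.102 and 0.314 RPKM. The part of these cells in the values of the class I genes was not tested.

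The MHC class II genes, which present peptides taken up from outside the cell, included both higher and lower genes, with 8 of 10 lower in the clodronate library, where 51.6% of all genes kept had a log2 ratio above 0. Of the 10 class II genes, 3 (H2-Aa, H2-Ab1 and H2-DMb2) were lower and 1 (H2-Oa, listed at 0 with vehicle and at 2.10 RPKM with clodronate) was higher by 2-fold or more, against 6.77% and 6.95% of all genes kept, with a median log2 ratio of -0.45. H2-Oa passed the mean of 1 RPKM only through the clodronate library. Ciita, the class II counterpart of Nlrc5, had 10.3 RPKM with vehicle and 7.99 RPKM with clodronate, whereas Nlrc5 had 16.0 and 22.8 RPKM. H2-Ob, which lies next to Tap2 in the files, had 7.21 and 3.89 RPKM. Direction did not separate class I from class II genes as a whole. As deposited, H2-K1, B2m and the shared H2-D1 row were also lower, with log2 ratios of -0.37, -0.34 and -0.044. Cd74, the most abundant gene of the class II list, had 6290 and 6752 RPKM. Any difference between the class I and class II genes has no replicate check.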

How the data were processed

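The 2 libraries were analysed, 1 per condition, grouped by the labels. The authors deposited RPKM per locus, and the submitters' processing notes name CASAVA 1.8.2, TopHat2 2.0.9, Bowtie 0.12.9, Cufflinks 2.2.1 and Cuffdiff, with the build mm9, without their order or settings. The paper describes no RNA sequencing of these samples. The depth is unknown, so no interval was computed. Symbols turned into numbers at 26 loci were replaced by RefSeq accessions, and rows of 1 symbol were summed. Genes whose mean was 1 RPKM or more were kept (10982), and the ratio was taken on the log2(RPKM + 1) scale. RPKM are not counts and no model was fitted. Coordinates of the files count from 0 at the start, since end minus start equals the RefSeq gene length at 7611 of 21491 loci and is 1 shorter, as in counting from 1, at 483, and were written from 1. Files (mm9) and reference (GRCm38) coordinates were never combined.

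The genes, 10 related lists and 9 marker lists (179 genes, 7 not found) were chosen with earlier results of these data known. Any gene of these lists could be named. Values of some listed genes are not reported here. Adgre1 was found as Emr1 by accession. The alternatives tried were no filter, a minimum mean of 5 RPKM, a pseudocount of 0.1, median centring, upper-quartile scaling, the highest row of each symbol, small RNA genes left out, thresholds of 1.5-fold and 3-fold, and a correction for GC content and transcript length by bin medians (10 bins each, GENCODE M21 transcripts, 98.7% of genes kept). The steps were tested on simulated data. Python 3.11.15, numpy 2.4.6, pandas 2.3.3 and matplotlib 3.10.9 were used.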

Additional observations from a re-analysis of the deposited data

How the results depend on the processing

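No paired analysis was possible because there was only 1 library for vehicle and 1 for clodronate. A shift of over 0.1 in log2 ratio was taken as a change, since no replicate spread exists. Of 72 log2 ratios of single genes recomputed over 9 genes and 8 alternatives, 67 moved by less, 3 by more, and 2 changed sign, all 5 after the correction for GC content and transcript length, B2m to 0.18 and Tap2 to -0.046. After that correction the median of the 9 genes was 0.27, and the log2 change of the ratio of Psmb8 to Psmb5 was -2.51, of Psmb9 to Psmb6 0.72 and of Psmb10 to Psmb7 -0.92. With a threshold of 1.5-fold, which calls more genes by construction, 1 gene was higher, Tap1, and 1 was lower, Psmb10. Counting the shared H2-D1 row as a member, an alternative chosen after seeing the data, gave a median of 0.33. The number of genes above 0 was 6 under each of its alternatives, with B2m in place of Tap2 after the correction. Every gene has 1 row and over 10 RPKM in both libraries, so no filter, the filter of 5 RPKM, the highest row and leaving out small RNA genes cannot move the ratios. The unknown depth and the single libraries limit every value.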

Other observations

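The list of class I receptors held mostly genes at low levels. Klra2, a Ly49 receptor, had 22.1 RPKM with vehicle and 16.5 RPKM with clodronate. Lilrb4, an inhibitory receptor of myeloid cells that is not an established class I receptor in mice, was also in this list and had 1002 and 824 RPKM, and Lilrb3, the related receptor that binds class I, was not matched to a row. Cd8a was listed at 0 with vehicle and at 0.031 RPKM with clodronate, and Klrc1 and Klrd1 were listed at 0 in both.

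The markers of other cells differed in their sums. The 6 fibroblast markers summed to 154 RPKM with vehicle and 75.1 RPKM with clodronate. Most of this sum came from Dcn, with 77.3 and 28.4 RPKM, and Col3a1, with 62.1 and 34.4 RPKM. Only Col1a1 was higher with clodronate, with 2.32 and 5.40 RPKM. The 6 neutrophil markers found summed to 43.1 and 45.1 RPKM. Of these, S100a8 had 12.7 and 23.1 RPKM, Csf3r 26.4 and 19.3 RPKM and Cxcr2 4.06 and 2.69 RPKM, and 3 were listed at 0 in both. The 5 endothelial markers summed to 2.37 and 7.40 RPKM and the 4 B cell markers to 2.99 and 1.74 RPKM. Of the dendritic cell markers, Cd209a, a lectin receptor, had 1.25 and 8.68 RPKM.

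Psmb5 had 7.26 times the RPKM in the clodronate library, while the genes next to it in the files, Psmb11 and Cdh24, had at most 0.594 RPKM. Psmb11 and Cdh24 were chosen after their values were seen.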
